A study of Mus musculus with 6 samples.

Results

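The 36 genes described here encode the enzymes and binding proteins that hold reactive oxygen species and metal ions in check: superoxide dismutases, catalase, glutathione peroxidases, peroxiredoxins, the thioredoxin and glutaredoxin systems, glutathione synthesis, the NRF2 and KEAP1 regulators with their inducible enzymes, and the metallothioneins Mt1 and Mt2. They were chosen by gene symbol from a fixed list, and all 36 were among the 55376 genes of the deposited tables. RNA immunoprecipitation sequencing (RIP-seq) of freshly isolated satellite cells (fiSCs), the stem cells of skeletal muscle, gave 6 libraries in 3 groups of 2. CPEB1 IP is the RNA brought down with an antibody to CPEB1, IgG is the RNA brought down with a control antibody, and input is RNA that was not precipitated. All 3 groups came from C57BL/6 mice aged 3 months, with no genotype or treatment apart from the antibody. By the study's methods the cells were sorted from digested hindlimb muscle as negative for CD31, CD45 and Sca1 and positive for Vcam1, and the RIP was done in 2 experiments, which the study counts as biological replicates. The labels do not tie the libraries to animals, and the p-values below rest on the spread between the 2 libraries of each group. In sorted bulk samples of this kind, fewer cells of a type and less RNA per cell cannot be told apart.

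Superoxide dismutases turn superoxide into hydrogen peroxide, which catalase splits and which glutathione peroxidases and peroxiredoxins reduce with electrons from glutathione or thioredoxin. NRF2, encoded by Nfe2l2, is the transcription factor that drives many of these genes, and KEAP1 marks it for degradation until oxidants or electrophiles modify KEAP1. Metallothioneins are small cysteine-rich proteins that bind zinc and copper and are induced by both metals, by glucocorticoids and by oxidative stress, and quiescent stem cells are known for high antioxidant capacity. CPEB1 binds cytoplasmic polyadenylation elements (CPEs), U-rich motifs in the 3′ UTRs of mRNAs, and through them controls poly(A) tail length and translation.

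Canonical CPEs, TTTTAT and TTTTAAT in DNA letters, were searched on the sense strand of the 3′ UTRs annotated in GENCODE M21 on mm10. The sites below are shown because they are the motifs through which CPEB1 is known to bind, in members on which the results turn: the regulator Nfe2l2, the extracellular superoxide dismutase Sod3, the peroxiredoxin Prdx1 and the heme oxygenase Hmox1, each higher in CPEB1 IP than in IgG, and Gclc and Glrx5, lower in CPEB1 IP than in IgG. The capitals mark the CPE, and each stretch is read 5′ to 3′ on the strand of the gene.
Nfe2l2, first site, chr2:75675601-75675630, minus strand: accactatacttTTTTATatactgtatgaa
Nfe2l2, last site, chr2:75675570-75675599, minus strand: aggaaatgacatTTTTATattaaattgttt
Sod3, chr5:52371352-52371381, plus strand: tggcagggatgtTTTTAATtttttttcctg
Prdx1, chr4:116699828-116699857, plus strand: ttctagtgctggTTTTATaagcatggatta
Hmox1, chr8:75100402-75100431, plus strand: ttctgtcttgttTTTTATtatttccccagt
Gclc, first site, chr9:77793431-77793460, plus strand: atactaaagtatTTTTATgattaacagtgt
Gclc, last site, chr9:77794209-77794238, plus strand: tttgtgttatctTTTTAATtgttaactaaa
Glrx5, chr12:105042721-105042750, plus strand: ccaagaaagacaTTTTAATtgcaggtggtt
The last canonical CPE lay 69 bases before the end of the longest annotated 3′ UTR in Nfe2l2, 48 bases before it in Sod3 and 170 bases before it in Hmox1. In Prdx1 it lay 977 bases before that end, and in the lower members Gclc and Glrx5 it lay 258 and 167 bases before it. The lower calls of Gclc and Glrx5 were not kept under all alternatives and turned to 0.32 and 0.063 with the library totals behind the FPKM.

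Counts on genes ran from 1284716 to 4941653 per library and were lowest in IgG. Reads counted on genes made up 69.5% to 79.8% of the library total behind the deposited FPKM in input and CPEB1 IP, but 39.1% and 39.5% in IgG, so the 2 ways of scaling a library differ for IgG. TMM library sizes, which rest on the counts on genes, are used unless another scaling is named. CPM below is the count of a gene as a share of that library size, comparable between libraries for 1 gene, and FPKM is per kilobase of gene length, comparable between genes. The 11 satellite cell markers, all detected in every library, summed to between 10852 and 14368 CPM, of which Sdc4 held the most (5146 to 7017). They did not move alike: Pax7 had 324 and 347 CPM in input and 79.6 to 91.2 in the precipitates, and Myod1 930 and 1045 CPM in input and 1881 to 2499 in the precipitates. Of the 11, 2 were higher and 4 lower than input in CPEB1 IP, and 1 and 7 in IgG. Of all genes tested, 17% and 15.8% were so in CPEB1 IP and 21.4% and 19.4% in IgG. Of genes with a mean input FPKM over 10, 24.7% and 21.6% were so in CPEB1 IP and 10.5% and 40.3% in IgG. The 6 erythroid markers summed to 6.34 and 10.2 CPM in input and 77.0 to 94.0 CPM in the precipitates, and the 8 endothelial markers to 144 CPM in both input libraries and 186 to 261 CPM in the precipitates. The 9 immune markers summed to 25.4 and 38.9 CPM in input, 83.2 and 86.7 in IgG and 60.7 and 73.9 in CPEB1 IP, and the 8 myofibre markers to 72.2 and 80.0, 128 and 135, and 139 and 166. Sums were lower in the precipitates for the 8 fibro-adipogenic and fibroblast markers (2520 and 2544 CPM in input, 1079 to 1463 in the precipitates). They were also lower for the 6 pericyte and smooth muscle markers (771 and 901, 313 to 433) and the 5 Schwann cell markers (494 and 592, 225 to 371). The Schwann cell sum followed Pmp22 (418 and 513, 127 to 205), and the fibro-adipogenic sum mostly Col3a1 (1829 and 1864, 513 to 659). Singly, 4 of 5 Schwann cell markers were higher than input in CPEB1 IP and 1 lower. Of the fibro-adipogenic and fibroblast markers 4 of 7 tested were higher and 2 lower, where 17% of all genes tested were higher and 15.8% lower. The part of these markers in the results was not tested.

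In input, Gpx3 was the most abundant RNA of all genes by FPKM. Gpx3 encodes the secreted glutathione peroxidase, and had 2813 and 3018 FPKM in the 2 input libraries. Mt1 followed among the 36 with 552 and 753 FPKM, Mt2 with 293 and 462 and the cytosolic thioredoxin Txn1 with 96.8 and 142. In mean input FPKM over all genes, Mt1 was number 23, Mt2 number 61 and Txn1 number 254. Of the 36 genes, 35 had a mean input FPKM over 1, 26 over 10 and 10 over 50, against 12207, 3763 and 748 of all genes. The lowest were Glrx, a cytosolic glutaredoxin, with 0.514 and 0.614 FPKM, and Nqo1, a quinone reductase and textbook NRF2 target, with 0.980 and 1.40. The 36 genes together took 1.22% and 1.27% of the counts on genes in input, 1.30% and 1.34% in IgG and 1.59% and 1.40% in CPEB1 IP. Gpx3 alone took 0.685% to 0.889% in each library.

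**Figure D1:**
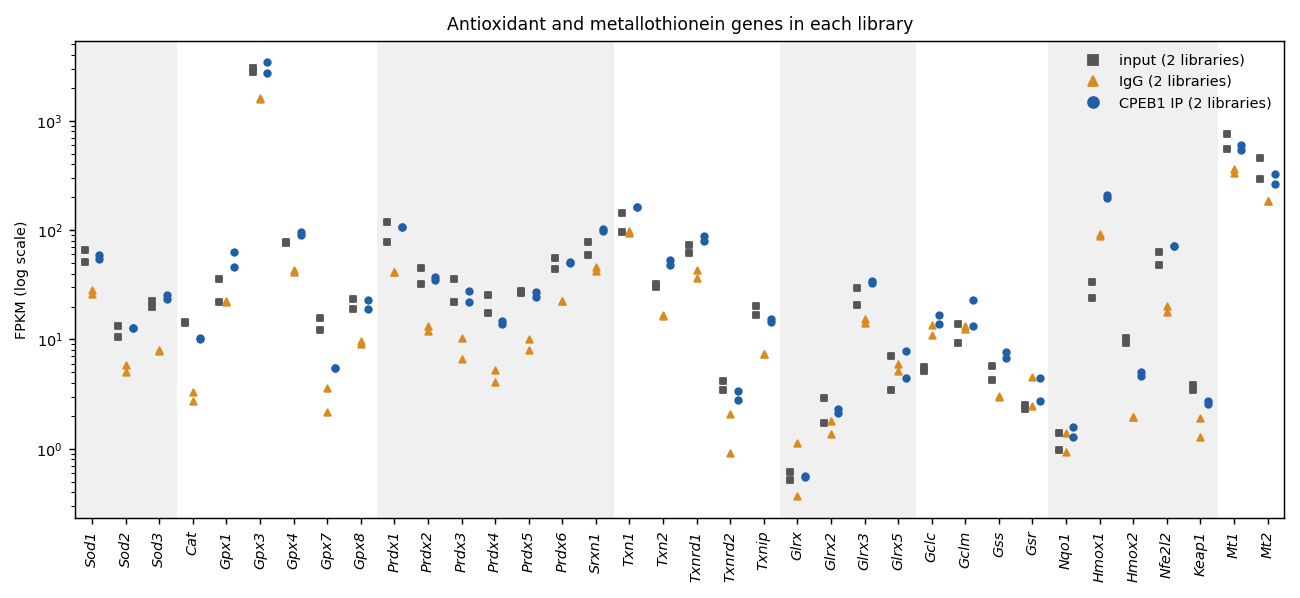
FPKM of each of the 36 genes (log axis) in the 2 input, 2 IgG and 2 CPEB1 IP libraries, 1 symbol per library, grouped from left to right by role in shaded and unshaded bands. Gpx3, Mt1 and Mt2 stood above the other members in every group, and Hmox1 lay between 24.2 and 33.8 FPKM in input but between 87.5 and 211 FPKM in the precipitates.

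Gene length in these tables counts all exons of a gene, and for 7 members it was more than 2 times the longest annotated coding transcript. Recomputed per longest coding transcript, mean input FPKM of Sod1, the cytosolic copper-zinc superoxide dismutase, went from 58.4 to 362, which moved it from number 9 to number 4 among the 36. Gpx3, Mt1 and Mt2 kept places 1, 2 and 3. The order of the other levels below the top 3 should be read with this in mind.

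Between the groups, 35 of the 36 genes had enough counts to be tested, and Nqo1 did not. In CPEB1 IP against IgG, 18 of the 35 were higher and 2 were lower (adjusted p under 0.05 by the quasi-likelihood test of edgeR, with Benjamini-Hochberg adjustment over all genes tested), where 14.7% of all 12124 genes tested were higher and 18.7% lower. Taking both directions together, 20 of 35 members and 33.4% of all genes passed. Abundant genes were called higher more often than others: of the genes with a mean input FPKM over 10, 39.1% were higher and 4.79% lower, and of the 26 members above that level 17 were higher and 0 lower. Median log2 fold change was 0.36 for the members and -0.01 for all genes tested, and 0.38 and 0.30 among those abundant genes. The log2 fold changes of the 18 ran from 0.28 to 1.10. With the library totals behind the FPKM, 30 members were higher and 0 lower, as described further on. The higher genes came from every role but the metallothioneins: all 7 peroxiredoxins and sulfiredoxin, 2 of 3 superoxide dismutases, 3 of 6 in the catalase and glutathione peroxidase group, 2 of 5 in the thioredoxin system, and Glrx3, Gss, Hmox1 and Nfe2l2.

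Against input, CPEB1 IP was higher for 13 and lower for 2 of 35 members, where 17% of all 12171 genes tested were higher and 15.8% lower (15 members and 32.8% of all genes in either direction). IgG was higher than the same 2 input libraries for 6 and lower for 9 of 35 members, where 21.4% of 12980 genes tested were higher and 19.4% lower (15 members and 40.7% of all genes in either direction). Among genes with a mean input FPKM over 10, the background was 24.7% higher and 21.6% lower in CPEB1 IP, with 11 and 1 of 26 members, and 10.5% higher and 40.3% lower in IgG, with 3 and 8 of 26 members. The median log2 fold change over input was 0.27 in CPEB1 IP and -0.14 in IgG for the members, against -0.00 and 0.03 for all genes tested. By mean CPM, 10 members ran IgG, input, CPEB1 IP from lowest to highest, 9 ran input, IgG, CPEB1 IP, and 7 ran IgG, CPEB1 IP, input. In another 7, mostly glutaredoxins and glutathione enzymes, input was lowest and IgG highest. In 3, Keap1, Mt1 and Mt2, CPEB1 IP was lowest and input highest.

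**Figure D2:**
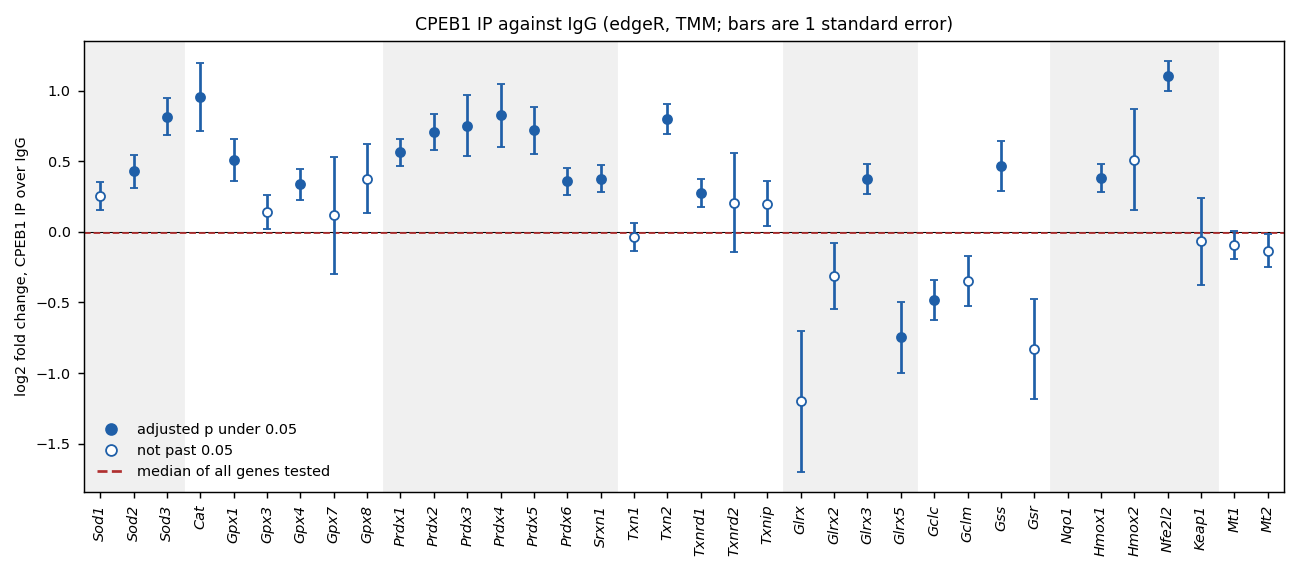
CPEB1 IP against IgG on the log2 scale (fold change) for each member tested, grouped by role as before (points, bars of 1 standard error, filled where adjusted p was under 0.05), with the median of all genes tested as a dashed line at -0.01. The 7 peroxiredoxins and sulfiredoxin lay between 0.36 and 0.83, while Glrx5 at -0.75 and Gclc at -0.48 were the filled points below 0.

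All 3 superoxide dismutases had positive log2 fold changes over IgG, and Sod2 and Sod3 passed the test. Sod3, which encodes the extracellular enzyme, had 104 and 107 CPM in input, 71.7 and 74.6 in IgG and 132 and 138 in CPEB1 IP. The 3 groups did not overlap, with IgG lowest and CPEB1 IP highest. Sod3 had a log2 fold change of 0.82 over IgG (standard error 0.13, adjusted p = 1.22e-04) and 0.40 over input (adjusted p = 0.0372), and IgG was lower than input (-0.53, adjusted p = 0.0246). The call of CPEB1 IP over input was kept in 2 of 9 alternatives and lost with DESeq2 (adjusted p = 0.101) and with any library left out, and that of IgG over input was lost with DESeq2 (adjusted p = 0.118) and without either IgG library. Sod2, the mitochondrial manganese enzyme, had 148 and 172 CPM in input, 141 and 127 in IgG and 193 and 185 in CPEB1 IP. CPEB1 IP was highest in both libraries and overlapped neither other group, with a log2 fold change of 0.43 over IgG (standard error 0.11, adjusted p = 0.00682) and 0.29 over input, which did not pass (adjusted p = 0.116). Over IgG the Sod2 call was lost with DESeq2 (adjusted p = 0.0636) and when IgG replicate 2 was left out. Sod1 had a log2 fold change of 0.25 over IgG (adjusted p = 0.0564).

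In the peroxide-reducing enzymes outside the peroxiredoxins, Cat, Gpx1 and Gpx4 were higher in CPEB1 IP than in IgG. Cat encodes catalase, the peroxisomal enzyme that splits hydrogen peroxide, and had 51.0 and 48.9 CPM in input, 20.9 and 17.9 in IgG and 39.8 and 39.2 in CPEB1 IP. Input was highest and IgG lowest, without overlap. Cat had a log2 fold change of 0.96 over IgG (standard error 0.24, adjusted p = 0.00462), which put Cat above 97.9% of all genes tested, and -0.29 over input (adjusted p = 0.220), while IgG was lower than input by 1.37 on the log2 scale (log2 fold change -1.37, adjusted p = 1.41e-04). With DESeq2 the Cat call over IgG was lost (adjusted p = 0.0575).

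Gpx1, the ubiquitous cytosolic glutathione peroxidase and a selenoprotein, had 43.8 and 66.0 CPM in input, 76.2 and 80.3 in IgG and 99.6 and 130 in CPEB1 IP. By CPM both precipitates lay above input and CPEB1 IP above IgG. For Gpx1 the log2 fold change of CPEB1 IP came to 0.51 over IgG (standard error 0.15, adjusted p = 0.0132) and 1.13 over input (adjusted p = 8.99e-04). IgG over input did not pass (0.51, adjusted p = 0.0546) and turned to -0.38 with the library totals behind the FPKM. The value over IgG was 0.28 without CPEB1 IP replicate 2 (adjusted p = 0.364), and the call was also lost with DESeq2 and with all 6 libraries in 1 fit. Gpx4, which reduces lipid peroxides in membranes, had log2 fold changes of 0.34 over IgG (adjusted p = 0.0210, up to 0.129 over the alternatives) and 0.46 over input (adjusted p = 0.0202). Gpx4 shares 762 bases at 99.7% identity with its pseudogene copy Gpx4-ps2, which held 930 counts over all libraries against 3361 for Gpx4, so its values are uncertain. Gpx7, an endoplasmic reticulum member, was lower than input in both precipitates, by 1.15 and 1.38 on the log2 scale (log2 fold changes -1.15, adjusted p = 0.00582, and -1.38, adjusted p = 0.00508).

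Gpx3 held the most counts of any member. It had 7085 and 7036 CPM in input, 6947 and 7347 in IgG and 9341 and 7164 in CPEB1 IP. The first CPEB1 IP library stood above the other 5, and the second lay within the range of IgG. With TMM no comparison passed the test: log2 fold change was 0.14 over IgG (standard error 0.12, adjusted p = 0.399), 0.27 over input (adjusted p = 0.168) and 0.02 for IgG over input (adjusted p = 0.929). With the FPKM library totals Gpx3 had 0.94 over IgG (adjusted p = 1.65e-09) and -0.86 for IgG over input (adjusted p = 5.91e-07), where the medians of all genes were 0.80 and -0.85.

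The peroxiredoxins, thiol peroxidases that are recycled by thioredoxin, and Srxn1, the sulfiredoxin that repairs their overoxidised form, were the role in which every member was higher in CPEB1 IP than in IgG, in 7 of 7 genes. All 7 had a mean input FPKM over 10, from 21.6 to 97.9. At that level 39.1% of genes were higher over IgG, and 14.7% of all genes tested. Prdx1, the abundant cytosolic form, had 330 and 460 CPM in input, 306 and 313 in IgG and 484 and 473 in CPEB1 IP. Its CPEB1 IP libraries lay above all others. For Prdx1 this was a log2 fold change of 0.56 over IgG (standard error 0.09, adjusted p = 1.46e-04) and 0.33 over input (adjusted p = 0.105). Prdx2, the other main cytosolic form, had 136 and 177 CPM in input, 88.2 and 101 in IgG and 160 and 163 in CPEB1 IP. IgG was lowest in both libraries, and CPEB1 IP lay inside the range of input. Its log2 fold change was 0.71 over IgG (standard error 0.13, adjusted p = 2.41e-04), 0.10 over input (adjusted p = 0.623) and -0.72 for IgG over input (adjusted p = 0.00145).

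Prdx3, the mitochondrial form, had 45.0 and 68.5 CPM in input, 23.9 and 38.0 in IgG and 49.2 and 59.1 in CPEB1 IP. Again IgG was lowest and CPEB1 IP within the input range. The log2 fold change was 0.75 over IgG (standard error 0.22, adjusted p = 0.0112), and this call was lost without CPEB1 IP replicate 2, without IgG replicate 1 and with DESeq2 (adjusted p up to 0.175). Prdx4, the endoplasmic reticulum form, had 51.0 and 69.7 CPM in input, 26.9 and 21.5 in IgG and 44.3 and 45.3 in CPEB1 IP. Input was highest and IgG lowest, without overlap. Its log2 fold change was 0.83 over IgG (standard error 0.22, adjusted p = 0.00722), -0.37 over input (adjusted p = 0.135) and -1.32 for IgG over input (adjusted p = 1.05e-04). The Prdx4 call over IgG was lost without CPEB1 IP replicate 2 and with DESeq2 (adjusted p = 0.0814).

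Prdx5, found in mitochondria, peroxisomes and cytosol, had 78.8 and 75.6 CPM in input, 52.3 and 42.3 in IgG and 78.7 and 83.7 in CPEB1 IP. IgG stood apart below the other 4 libraries. Prdx5 had a log2 fold change of 0.72 over IgG (standard error 0.17, adjusted p = 0.00225), 0.13 over input (adjusted p = 0.547) and -0.71 for IgG over input (adjusted p = 0.00842). Prdx6, which uses glutathione in place of thioredoxin, and Srxn1 had smaller values over IgG, 0.36 (adjusted p = 0.00740) and 0.38 (adjusted p = 0.00429). Of these 7 genes only Srxn1, an NRF2 target, passed over input (0.75, adjusted p = 0.00105), and Prdx2, Prdx3, Prdx4 and Prdx5 were the 4 lower in IgG than in input. For these 4 the CPEB1 IP libraries stood near or below input, and the IgG libraries stood below it. Prdx2 overlaps Junb, whose 31662 counts over all libraries exceed the 2476 of Prdx2, and Prdx5 overlaps Trmt112. Both pairs lie on opposite strands, and the counting is not stated to use strand.

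In the thioredoxin system, Txn2 and Txnrd1 were higher in CPEB1 IP than in IgG. Txn2, the mitochondrial thioredoxin, had 176 and 174 CPM in input, 168 and 177 in IgG and 305 and 322 in CPEB1 IP. Input and IgG overlapped, and both CPEB1 IP libraries lay far above them. Txn2 had a log2 fold change of 0.80 over IgG (standard error 0.10, adjusted p = 1.34e-05) and 0.89 over input (standard error 0.13, adjusted p = 2.44e-04), against -0.02 for IgG over input (adjusted p = 0.926). Txn1, its cytosolic counterpart, had 141 and 192 CPM in input, 248 and 247 in IgG and 259 and 246 in CPEB1 IP. The precipitates overlapped, at -0.04 over IgG (adjusted p = 0.810), and both were above input, by 0.65 in CPEB1 IP (adjusted p = 0.00536) and 0.57 in IgG (adjusted p = 0.00444), where the FPKM library totals gave -0.32 for IgG over input. Txnrd1, the cytosolic thioredoxin reductase, was 0.28 higher over IgG on the log2 scale (adjusted p = 0.0337, up to 0.311 over the alternatives) and 0.52 higher over input (adjusted p = 0.00756). Txnrd2, the mitochondrial reductase, and Txnip, which binds thioredoxin and limits its action, passed in none of the 3 comparisons with TMM. The 6 mitochondrial members of the list as a whole counted 3 higher and 1 lower over IgG, and the 5 selenoproteins 3 higher and 0 lower, where 14.7% of all genes tested were higher and 18.7% lower, and 39.1% and 4.79% of the abundant ones.

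**Figure D3:**
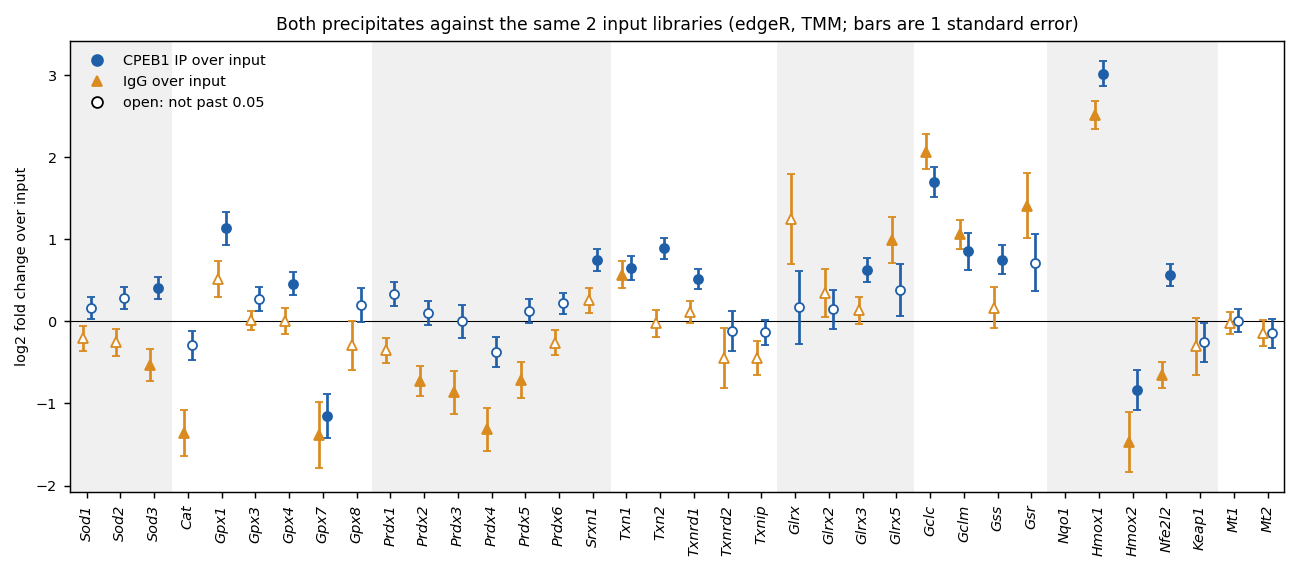
log2 fold change over input for CPEB1 IP (circles) and IgG (triangles), grouped by role, with bars of 1 standard error and open symbols where adjusted p was not under 0.05; both use the same 2 input libraries. Hmox1 and Gclc stood high in both precipitates, and Mt1 and Mt2 lay near 0 in both. Txn2 and Nfe2l2 lay above 0 in CPEB1 IP, while in IgG Txn2 lay near 0 (-0.02) and Nfe2l2 below it (-0.65).

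Among the glutaredoxins 1 of 4 genes was higher and 1 of 4 lower in CPEB1 IP than in IgG, and the same counts held for the glutathione genes, with 14.7% and 18.7% over all genes. Gclc encodes the catalytic subunit of glutamate-cysteine ligase, the rate-limiting step of glutathione synthesis. It had 29.0 and 25.1 CPM in input, 124 and 104 in IgG and 77.9 and 90.8 in CPEB1 IP. The groups did not overlap, with IgG highest. Gclc was 1.70 above input in CPEB1 IP (log2 fold change, standard error 0.18, adjusted p = 2.92e-05) and 2.07 above it in IgG (standard error 0.22, adjusted p = 8.29e-10), and -0.48 in CPEB1 IP against IgG (standard error 0.14, adjusted p = 0.0113), which turned to 0.32 with the FPKM library totals (adjusted p = 0.0587). The last call was also lost without IgG replicate 1, without CPEB1 IP replicate 1, with DESeq2 and with no filter.

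Gclm, the modifier subunit, had 80.3 and 111 CPM in input, 202 and 196 in IgG and 217 and 121 in CPEB1 IP. The 2 CPEB1 IP libraries disagreed, one above and one below IgG, and the difference from IgG did not pass (-0.35, adjusted p = 0.142, and 0.46 with the FPKM library totals). Over input the log2 fold change was 0.85 in CPEB1 IP (adjusted p = 0.0129) and 1.06 in IgG (adjusted p = 4.99e-06). The call in CPEB1 IP was lost with DESeq2 (adjusted p = 0.158) and with any library left out, with values from 0.40 to 1.20. Gss, glutathione synthetase, had 34.7 and 43.4 CPM in input, 42.6 and 45.2 in IgG and 60.3 and 66.0 in CPEB1 IP. CPEB1 IP was highest, with log2 fold changes of 0.47 over IgG (standard error 0.17, adjusted p = 0.0446) and 0.75 over input (adjusted p = 0.00603). The Gss call over IgG was lost when any 1 of the 4 libraries was left out, with DESeq2, with the replicate block and with all 6 libraries in 1 fit (adjusted p up to 0.347). Gsr, glutathione reductase, passed in IgG over input (1.41, adjusted p = 0.00418) but not in CPEB1 IP over input (0.71, adjusted p = 0.134).

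Glrx5, a mitochondrial glutaredoxin that carries iron-sulfur clusters, had 17.8 and 33.5 CPM in input, 46.3 and 55.2 in IgG and 43.4 and 23.4 in CPEB1 IP. The second CPEB1 IP library lay within the input range and the first just under IgG. The log2 fold change was -0.75 over IgG (standard error 0.25, adjusted p = 0.0261), 0.38 over input (adjusted p = 0.380) and 0.99 for IgG over input (adjusted p = 0.00395). The first of these was lost without CPEB1 IP replicate 2 or IgG replicate 2, with DESeq2, with no filter and with all 6 libraries in 1 fit, and turned to 0.06 with the FPKM library totals (adjusted p = 0.826). Glrx3, a cytosolic member of the same kind, was 0.37 higher over IgG (adjusted p = 0.00993) and 0.62 higher over input (adjusted p = 0.00596). Glrx2 had values of -0.31 over IgG and 0.15 over input, neither past the test. Glrx, with 3.92 to 14.9 CPM in any library, had -1.20 over IgG (standard error 0.50, adjusted p = 0.0690).

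Nfe2l2 had the largest positive log2 fold change over IgG of the members tested. It had 254 and 306 CPM in input, 164 and 192 in IgG and 407 and 394 in CPEB1 IP. The 3 groups did not overlap, with IgG lowest and CPEB1 IP highest. Nfe2l2 reached 1.10 over IgG on that scale (standard error 0.11, adjusted p = 3.08e-07), above 98.7% of all genes tested, and its lowest value over the alternatives was 0.99, without IgG replicate 1. Over input it was 0.57 (standard error 0.13, adjusted p = 0.00538), and IgG was lower than input (-0.65, adjusted p = 0.00103). The gene lies at chr2:75675513-75704641 on the minus strand of mm10, and its longest annotated 3′ UTR of 448 bases holds the 2 canonical CPEs shown above.

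Keap1, the adaptor that targets NRF2 for degradation, had 22.3 and 22.9 CPM in input, 21.7 and 15.1 in IgG and 18.0 and 18.5 in CPEB1 IP. All 6 libraries were within a narrow range, and CPEB1 IP lay inside the range of IgG. With TMM no comparison passed, at -0.07 over IgG (standard error 0.31, adjusted p = 0.897), -0.26 over input and -0.31 for IgG over input. With the FPKM library totals Keap1 passed over IgG (0.74, adjusted p = 0.0402) and for IgG over input (-1.18, adjusted p = 0.00304).

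Hmox1 encodes heme oxygenase 1, which breaks down heme and is induced by heme, oxidants and NRF2. It had 58.9 and 76.2 CPM in input, 372 and 400 in IgG and 556 and 499 in CPEB1 IP. Input lay below all 4 precipitate libraries by a wide margin, and CPEB1 IP lay above IgG. The log2 fold change over input was 3.02 in CPEB1 IP (standard error 0.15, adjusted p = 9.01e-08), the 37th highest of 12171 genes tested, and 2.52 in IgG (standard error 0.17, adjusted p = 3.91e-15). Over IgG it was 0.38 (standard error 0.10, adjusted p = 0.00446). Of the erythroid markers 3 of 3 tested were higher than input in both precipitates. Of the 8 endothelial markers 7 were higher in CPEB1 IP and 6 in IgG. Among all genes tested, 17% were higher than input in CPEB1 IP and 21.4% in IgG. Schwann cell markers were higher in 4 of 5 in CPEB1 IP and 2 of 5 in IgG, with 1 lower in each. Fibro-adipogenic and fibroblast markers were higher in 4 of 7 tested in CPEB1 IP and 5 of 8 in IgG, with 2 lower in each. Pericyte and smooth muscle markers had 0 of 6 higher and 3 lower in each. Of the immune markers 1 of 3 tested was higher in CPEB1 IP, Lyz2 with 9.36 and 9.91 CPM in input and 44.7 and 46.9 in CPEB1 IP, while Ptprc, which encodes CD45, had 0 and 1.83 CPM there and 20.9 and 9.32 CPM in IgG, where 3 of 4 immune markers tested were higher than input. The sort took cells negative for CD31 and CD45, and the part of these markers in the Hmox1 result was not tested.

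Hmox2, the constitutive heme oxygenase, went the other way from input, with 32.0 and 26.6 CPM in input, 10.5 and 10.8 in IgG and 15.6 and 16.0 in CPEB1 IP. It was lower than input in CPEB1 IP (-0.84, adjusted p = 0.0170, and 0.0562 with DESeq2) and in IgG (-1.47, adjusted p = 0.00127), and did not pass over IgG (0.51, adjusted p = 0.294). Hmox2 overlaps Cdip1 on the opposite strand, and Cdip1 had 1894 counts against 338 for Hmox2. Nqo1 had between 2.11 and 5.23 CPM in the 6 libraries, too few to test.

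Mt1 and Mt2, neighbours on chromosome 8, passed in none of the 3 comparisons with TMM. Mt1 (chr8:94179082-94180327, plus strand) had 956 and 1207 CPM in input, 1015 and 1121 in IgG and 1123 and 975 in CPEB1 IP. All 3 groups overlapped. The log2 fold change was -0.09 over IgG (standard error 0.10, adjusted p = 0.498), 0.01 over input (standard error 0.14, adjusted p = 0.973) and -0.02 for IgG over input (standard error 0.13, adjusted p = 0.929). Mt2 (chr8:94172664-94173568, plus strand) had 240 and 349 CPM in input, 265 and 270 in IgG and 291 and 224 in CPEB1 IP. These groups overlapped as well, at -0.13 over IgG (standard error 0.12, adjusted p = 0.411), -0.15 over input (adjusted p = 0.553) and -0.14 for IgG over input (adjusted p = 0.518). With the FPKM library totals both passed over IgG, at 0.71 for Mt1 (adjusted p = 4.6e-08) and 0.67 for Mt2 (adjusted p = 1.1e-05), and for IgG over input, at -0.91 (adjusted p = 1.8e-06) and -1.03 (adjusted p = 1.74e-06), where the medians of all genes were 0.80 and -0.85. At this precision, differences smaller than the spread of the 2 libraries of a group could not be seen. Neither gene holds any of the CPE motifs searched in its annotated 3′ UTR, of 901 bases at most in Mt1 and 141 bases in Mt2.

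The precision differed between comparisons. Over IgG, 9 of the 18 higher genes kept their call under each of 9 alternatives, the FPKM library totals not among them: Sod3, Prdx1, Prdx2, Prdx5, Prdx6, Srxn1, Txn2, Hmox1 and Nfe2l2. Neither of the 2 lower genes did. With DESeq2 in place of edgeR, 9 members were higher and 0 lower over IgG, and 855 and 967 of all genes. Over input, Hmox1 was the 1 gene of 13 that kept its call in CPEB1 IP under all 9. Leaving out a CPEB1 IP library left 1 member higher without replicate 1 and 2 without replicate 2, and leaving out an IgG library left 1 or 0 higher and 0 lower in IgG over input. In these fits the lone library was assumed to vary like the other group, and few of all genes passed: 23 were higher and 6 lower without CPEB1 IP replicate 1, and 13 and 11 without IgG replicate 1.

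**Figure D4:**
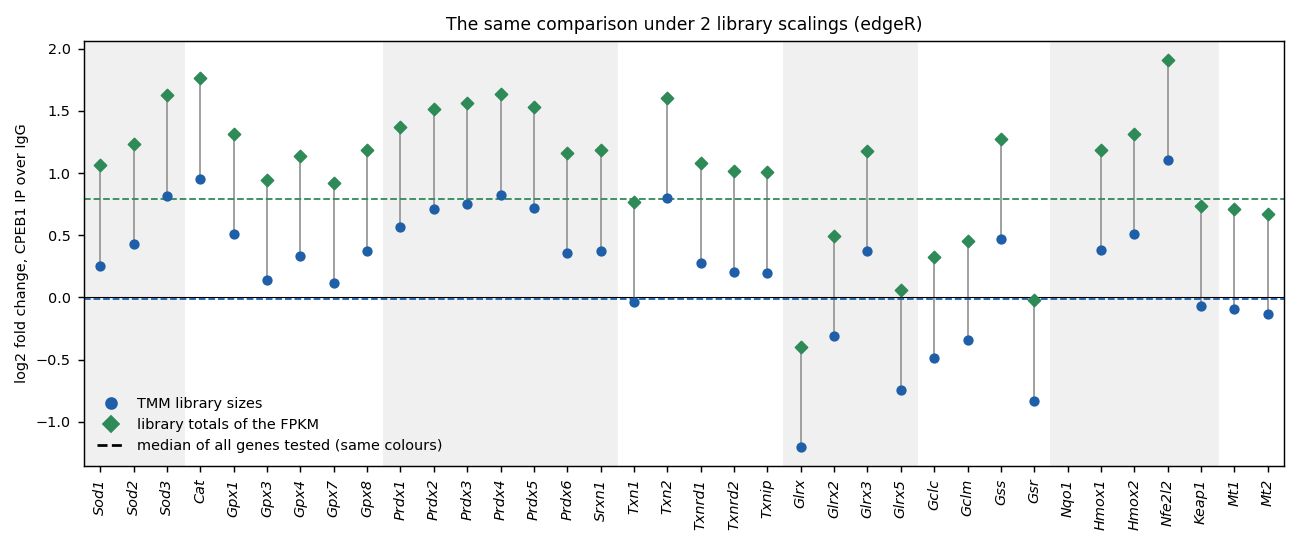
CPEB1 IP against IgG on the log2 scale (fold change) for each member tested, with TMM library sizes (circles) and with the library totals behind the deposited FPKM (diamonds), with the median of all genes tested under each scaling as dashed lines at -0.01 and 0.80. The change of totals moves all genes by nearly the same amount, so the count of members above the median of all genes hardly depends on it (25 of 35 under either scaling). Among genes with a mean input FPKM over 10 the median with TMM was 0.30, and 0.38 for the members above that level.

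How far the members stood above IgG depended on the scaling. With the FPKM library totals the median of all genes tested moved from -0.01 to 0.80, and 30 members were higher and 0 lower, as were 7149 and 937 of all genes, against 18 and 2 members and 1779 and 2265 genes with TMM. Mt1 then had 0.71, Mt2 0.67, Txn1 0.77 and Keap1 0.74, each below the median of all genes, and Nfe2l2 had 1.91, Cat 1.76 and Prdx4 1.63, each above it. In IgG over input the same totals moved the median of all genes to -0.85 and the members to 2 higher and 26 lower, against 6 and 9 with TMM (1108 and 7180 of all genes, against 2772 and 2515), and Hmox1 (1.63) and Gclc (1.20) stayed higher than input. In CPEB1 IP over input, where the median moved to -0.19, 7 members were higher and 3 lower, and 1235 and 2744 of all genes. The CPM of CPEB1 IP and IgG did not overlap for 25 of 35 members and 66.6% of all genes tested. For CPEB1 IP and input this held for 25 of 35 members and 67.3% of all genes, and for IgG and input for 24 of 35 members and 70.8%.

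By the criterion of a ratio over 2 between the FPKM of CPEB1 IP and IgG in each experiment, with 1 added to both, 18 of 36 members passed, and 14.4% of all genes tested. Of these, 17 were also higher by the count test, which 12.1% of all genes tested were by both criteria, and the other was Sod1. The added 1 holds the ratio down in genes of low FPKM, so the shares of all genes are an unlike background for abundant members. The share among genes with a mean input FPKM over 10 is not given here for the ratio. By the count test 39.1% of those genes were higher. Hmox1 passed both, whereas Gss, higher by the count test, and Gpx3, Mt1 and Mt2 did not reach the ratio. With FPKM recomputed on TMM library sizes, 1 member passed. The share of all genes passing is not given here for that setting. The median log2 fold change of all genes over IgG was 0.80 with the FPKM library totals and -0.01 with TMM.

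Other genes of the same pathways were taken from lists of 124 genes. Over IgG, 26 were higher and 4 lower of 107 tested, over input 23 were higher and 20 lower in CPEB1 IP of 112 tested, and 11 higher and 42 lower in IgG of 109. Beside these stand the shares of all genes, 14.7% higher and 18.7% lower over IgG, 17% and 15.8% in CPEB1 IP over input, and 21.4% and 19.4% in IgG over input. Among the abundant genes the shares were 39.1% and 4.79%, 24.7% and 21.6%, and 10.5% and 40.3%. Of 25 tested NRF2 partners, regulators and other targets, 7 were higher and 1 lower over IgG. The small Maf protein Mafk, an NRF2 partner, had 1077 and 1151 CPM in input, 432 and 418 in IgG and 587 and 544 in CPEB1 IP, and was lower than input in both precipitates (-0.93 and -1.39) and higher over IgG (0.35, adjusted p = 0.00682). The cystine transporter Slc7a11, which feeds glutathione synthesis, had 0.302 and 0.619 CPM in input, 29.1 and 9.32 in IgG and 6.56 and 7.72 in CPEB1 IP. It was lower in CPEB1 IP than in IgG (-1.46, adjusted p = 0.0137), as was Gclc.

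The ferritin subunits Fth1 and Ftl1, which store iron, were higher than input in both precipitates. Fth1 had 1.09 in CPEB1 IP and 0.93 in IgG, Ftl1 had 1.46 and 1.18, and neither passed over IgG (0.05 and 0.16). Glutathione transferases, which couple glutathione to electrophiles, had 4 higher and 1 lower of 17 tested over IgG, led in counts by Gstm1 with 608 and 653 CPM in input, 263 and 283 in IgG and 582 and 568 in CPEB1 IP (log2 fold change 1.01, adjusted p = 2.96e-07). Of 18 selenoprotein genes and synthesis factors tested, 7 were higher and 0 lower, and of 29 other thioredoxin-fold and repair enzymes, 5 were higher and 0 lower. Ccs, the chaperone that hands copper to Sod1, was among these 5 (0.97, adjusted p = 0.00731). Of 18 zinc and copper handling genes, 3 were higher and 2 lower, and Mtf1, the zinc-sensing factor that drives Mt1 and Mt2, did not pass over IgG (0.30, adjusted p = 0.303).

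A CPE of any of the 9 motifs searched (the canonical TTTTAT or TTTTAAT, then TTTTACT or TTTTCAT or TTTTAAAT or TTTTAACT or TTTTAAGT or TTTTAAAGT, and TTTTAATT, which contains one of the canonical motifs) was found in an annotated 3′ UTR of 22 of 36 members, or 61.1%. In all genes tested over IgG with an annotated 3′ UTR the share was 74.4%, and the median longest 3′ UTR was 1285 bases there and 884.5 bases in the members. Among the 18 members higher over IgG, 12 held a CPE, and among the other 18, 10 did. The genes without one included Gpx1, Gpx3, Gpx4, Prdx2, Prdx4, Prdx5, Sod1 and Gss, of which Gpx1, Gpx4, Prdx2, Prdx4, Prdx5 and Gss were higher over IgG. Median log2 fold change over IgG was 0.37 in the 21 tested members with a CPE and 0.29 in the 14 without, and -0.01 and 0.14 in all genes with and without one. Sod2 held 16 canonical CPEs in a 3′ UTR of 4963 bases, and Gclm and Gsr 7 each, with log2 fold changes of 0.43, -0.35 and -0.83. A match is a description of the annotated sequence and does not show binding.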

How the data were processed

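Per the study's methods, the authors aligned the reads to mm10 by HISAT, used featureCounts to assign them to genes, and deposited raw counts, gene lengths and FPKM (the submitters' processing notes name HISAT2, StringTie and featureCounts). The annotation release, the strand setting and the treatment of multiply mapping reads are not given in the sources used here. The deposited counts are not normalized, and the deposited FPKM divide them by gene length and by a total per library above the sum of its counts on genes. The IgG libraries were deposited in tables of their own, so any difference in how those tables were made cannot be told apart from the antibody.

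The count test ran in edgeR 4.0.16 under R 4.3.3, with filterByExpr, TMM, and the quasi-likelihood test for 2 groups at a time, two-sided, with Benjamini-Hochberg adjustment over all genes tested at 0.05. The standard error is the log2 fold change divided by the square root of F. The script was tested on simulated data. Depth was 1284716 to 4941653 counts on genes, and with 2 libraries a group the spread was shared across genes. DESeq2 1.42.0, DESeq2 size factors in edgeR, no filter, a replicate block, all 6 libraries in 1 fit, FPKM library totals and leaving out each library were the alternatives. The 3 comparisons share libraries, so they are not independent. Gene positions, lengths and 3′ UTRs are from GENCODE M21. All 36 members had the same start and end there as in the tables. The CPE motifs were read from a supplementary list of CPE-containing transcripts held only in part, so a motif listed elsewhere would be missed. Other steps used Python 3.11.15 with pandas 2.3.3 and matplotlib 3.10.9.

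The members and lists were chosen with earlier results of these data known. Values per library are given for the 14 members with the largest log2 fold change among those past the test over IgG, for Mt1, Mt2, Nfe2l2 and Keap1, and for the 3 members of highest input FPKM. Gclm, Hmox1, Hmox2, Txn1 and the other pathway genes given by library were chosen after their values were seen. The input FPKM per coding transcript and the background among genes with a mean input FPKM over 10 were added after seeing the data.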

Additional observations from a re-analysis of the deposited data

How the results depend on the processing

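With the library totals of the FPKM, members higher and lower numbered 30 and 0 in CPEB1 IP over IgG, 7 and 3 in CPEB1 IP over input, and 2 and 26 in IgG over input. Of all genes they numbered 7149 and 937, 1235 and 2744, and 1108 and 7180. This scaling turned the sign of 8 members over IgG, of 7 in CPEB1 IP over input (-0.20 to -0.02 with the totals) and of 9 in IgG over input. Over IgG these were Glrx2 (0.50), Txn1 (0.77), Glrx5 (0.063), Gclc (0.32), Gclm (0.46), Keap1 (0.74), Mt1 (0.71) and Mt2 (0.67), and in IgG over input Gpx1 (-0.38), Glrx2 (-0.55), Gpx3 (-0.86), Gpx4 (-0.87), Srxn1 (-0.63), Txn1 (-0.32), Txnrd1 (-0.76), Glrx3 (-0.76) and Gss (-0.72). With no filter on low counts, 22 members were higher and 0 lower over IgG, and 3513 and 2336 of all 42045 genes tested. The median log2 fold change of all genes was then -0.90. In IgG over input 3 members were higher and 15 lower, and 4109 and 3066 of all 40052 genes, with a median of 1.84. Mt1 had 0.30 over IgG and Gpx3 -0.25 in IgG over input without the filter, and the cause was not tested. DESeq2 called 9 members higher and 0 lower over IgG, 11 and 1 in CPEB1 IP over input, and 6 and 5 in IgG over input. Of all genes it called 855 and 967, 1475 and 1316, and 1695 and 1596. All 6 libraries in 1 fit left 13 members higher and 1 lower over IgG, and 1341 and 1920 of all genes. With a library left out, 15 to 16 members were higher and 1 to 3 lower over IgG, 1 to 11 and 0 to 2 in CPEB1 IP over input, and 0 to 8 and 0 to 13 in IgG over input. The FPKM ratio gave 10 members with a pseudocount of 5 and 1 with TMM library sizes, and the share of all genes is not given here for either.

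Deviations of same-numbered libraries from their group means correlated at -0.01, -0.02 and 0.03 over 14276 genes, so the numbers were not taken to pair the libraries. With the replicate block, 17 members were higher and 4 lower over IgG, 12 and 2 in CPEB1 IP over input, and 7 and 10 in IgG over input. Of all genes, 1739 and 2231, 1937 and 1804, and 2777 and 2681 were higher and lower in the same comparisons. RLE size factors moved none of the counts of members called by over 1.5 times.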
